A study of Homo sapiens with 9 samples.

Results

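TEC genes are annotated transcripts whose existence still awaits proof by experiment, and 127 of them had a mean of at least 10 counts over the 9 libraries of KHM-5M thyroid cancer cells analysed here. They were taken by that rule from 1060 TEC genes among the 58735 genes of the deposited table, of which 561 had at least 1 count in any library. The members were thus chosen by their mean count over all 3 groups, and their levels are given as a description. The study exposed this human thyroid cancer line for 24 h to YK-4-279, a small-molecule inhibitor of ETS transcription factors, at 0.3 μM or 1 μM, or to the solvent DMSO alone. Each of the 3 groups had 3 libraries, built after selection with poly-T beads. The labels do not say whether replicates came from separate cultures, so p-values measure the spread between these samples, which may be technical.

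TEC annotations mark clusters of unspliced transcript evidence with poly(A) features, placed by annotators where no spliced structure or open reading frame settles what the transcript is. Many lie in the introns or just beyond the ends of known genes, where the RNA polymerase that transcribes the larger gene also passes. For a gene that lies within an intron, a count cannot be told apart from reads of the unspliced RNA of the gene that holds it. Where a gene overlaps another on the opposite strand, the 2 cannot be separated either unless counting used strand. The paper names a stranded library kit, but whether counting used strand is not given in the sources used here.

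Nearly all members were unspliced. Of the 127, 126 were a single block with no intron in the deposited table, the exception being AC012313.4, and 120 were still listed in GENCODE v44, 118 of them as TEC. Their length ran from 305 to 18662 bases with a median of 2027. They were spread over 21 chromosomes, with 19 members on chromosome 19, 18 on chromosome 17 and 16 on chromosome 16.

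Against protein-coding genes, called host genes below, the members fell into 5 positions on GRCh38. Inside the span of a same-strand protein-coding gene lay 46 members (36.2%), in 44 host genes, and 2 overlapped such a gene in part. On the opposite strand of a protein-coding gene lay 30 members, 18 started within 10 kb past the 3′ end of a same-strand gene, and 31 had none of these neighbours. FBRSL1 held AC131212.2 and AC131212.3, and ZNF800, a zinc-finger gene, held AC000123.2 and AC000123.3. By contrast, 91.6% of the 107 genes annotated as sense_intronic at the same mean count lay inside a host, 85.1% of the 740 antisense genes lay opposite one, and 69.9% of the 562 lincRNA genes lay apart. The TEC group thus held a mixture of the positions that define those other classes.

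Of the 46 members inside a host, 37 touched no exon of it in GENCODE v44, 7 did so in part and 2 for most of their length. They lay toward the 3′ side, with a median position 68.6% of the way along the host. Of the 30 members opposite a host, 23 lay within its span, 4 crossed its end and 3 its start, and 19 touched a host exon. The 18 members downstream of a gene started 134 to 8872 bases past its end (median 2193), 6 of them within 1 kb. Another gene with a mean of at least 10 counts overlapped 28 of the 127 members, so that the way reads were assigned could divide the counts there.

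The 3′ ends show what kind of ends these annotations have. A few are printed as examples of members with a cleavage signal, with a genomic run of A, and with neither. Each shows the last 50 bases of the member and the 20 bases after it on its own strand, read from hg38 (GRCh38) at the deposited coordinates. Capitals mark the poly(A) signal AATAAA or its variant ATTAAA that lies nearest the end among those wholly within the last 50 bases, or a run of at least 10 A.
AL353763.2 (chr9:41014084-41014153, plus strand): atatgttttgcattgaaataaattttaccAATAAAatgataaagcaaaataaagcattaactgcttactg
AC132938.5 (chr17:82464206-82464275, plus strand): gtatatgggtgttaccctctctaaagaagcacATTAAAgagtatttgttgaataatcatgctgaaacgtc
AC000123.3 (chr7:127359765-127359834, minus strand): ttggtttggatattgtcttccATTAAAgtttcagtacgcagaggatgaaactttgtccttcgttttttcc
AC131212.2 (chr12:132566376-132566445, plus strand): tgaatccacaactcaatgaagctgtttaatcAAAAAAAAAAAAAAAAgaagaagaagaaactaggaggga
AL132780.4 (chr14:23023063-23023132, minus strand): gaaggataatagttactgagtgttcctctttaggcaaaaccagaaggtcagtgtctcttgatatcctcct

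AATAAA or ATTAAA, searched on the gene's own strand in the last 50 bases, was found in 47 of the 127 members (37.0%). The same letters were found at the end of 69.9% of all 15527 genes with a mean of at least 10 counts and a matched end, of 75.7% of the protein-coding ones and of 58.9% of the sense_intronic ones. A run of at least 10 A within the 70 bases was found in 18 members (14.2%), against 2.94% of all these genes, 2.60% of the protein-coding ones and 11.2% of the sense_intronic ones. Of the 18, 15 were among the 46 members inside a host (32.6% of them). The genomic A run of AC131212.2 above is 16 bases long. AC027290.2, inside VPS37B, was followed by 19 A among the 20 bases after its annotated end. These are matches of letters, and how far priming at such runs entered the counts was not tested.

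Most members were measured at low depth. Their mean counts ran from 10 to 218 with a median of 22.4, 72 had at least 20, 26 at least 50 and 15 at least 100. The libraries held 16903251 to 18238884 counts, so that a count of 3, taken as the floor, was worth 0.164 to 0.177 CPM, the count per library total in parts per 1e6, for counting error only. Per length, the median member had 0.721 FPKM (0.137 to 10.01). The members nearest the limit were AC069547.1 (mean count 10) and AC110285.7 (10.1) on the inner side and AL353763.1 and AL158211.5 (9.89 each) on the outer side. Among the 45 members inside a host that itself had at least 10 counts, the FPKM was 2.03% to 510% of that of the host, with a median of 19.3%. Only 14 were under 10% of the host and 3 exceeded it, among them AC243964.3 in CEACAM19 at 510% and AC005831.1 in CRACR2A at 156%.

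The cells were checked against thyroid and other markers. PAX8, a thyroid lineage factor, had a mean of 3049 counts, whereas the lineage factors FOXE1 and NKX2-1 had 17.9 and 3.44. The keratins KRT8 and KRT18 and the mesenchymal markers VIM and COL1A1 were high, with means of at least 7373 counts, whereas the epithelial markers KRT19 (79.1), EPCAM (103) and CDH1 (1.89) and the fibroblast marker COL1A2 (3.89) were low. The differentiation genes TG, TSHR and SLC5A5 had mean counts of 0.111 to 1.22. The blood markers PTPRC, CD3E and HBB had at most 1 count in any library. Pairs of replicates differed by more than sampling noise, with a chi-square of 3.20 to 10.7 per degree of freedom. In such bulk samples, fewer cells of a type and less RNA per cell cannot be told apart.

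At 1 μM the TEC genes held a smaller share of the library than in DMSO. The members took 0.0323%, 0.0337% and 0.0317% of all counts in the 3 DMSO libraries, 0.0292%, 0.0308% and 0.0317% at 0.3 μM and 0.0254%, 0.0226% and 0.0237% at 1 μM. All 3 libraries at 1 μM were under all 3 of each other group, and the libraries at 0.3 μM overlapped those of DMSO. The group means were 0.0325% ± 0.00103 (SD, n = 3), 0.0306% ± 0.00127 and 0.0239% ± 0.00141. The other non-coding classes moved with them: the share of sense_intronic genes was 0.0337% to 0.0350% in DMSO and 0.0219% to 0.0266% at 1 μM, and that of lincRNA genes 0.363% to 0.398% and 0.299% to 0.324%. TEC genes too low to be members held 0.00533% to 0.00653% of counts in DMSO and 0.00350% to 0.00412% at 1 μM. The part of a change common to all low or non-coding genes in the results below was not tested.

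**Figure D1:**
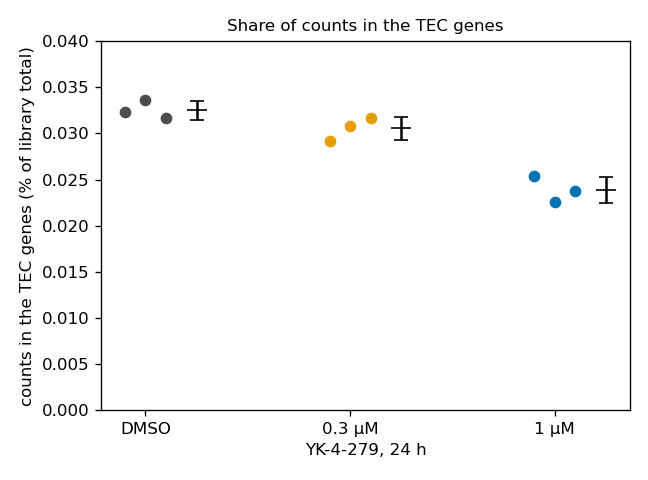
The share of each library's counts that fell in the 127 TEC genes (y axis, percent of the library total, starting at 0) for DMSO, 0.3 μM and 1 μM of YK-4-279. Points are libraries, and the bars beside them give the mean and SD of 3; the 3 points at 1 μM (0.0226% to 0.0254%) lie under the other 6.

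At 0.3 μM no TEC gene passed the test. The filter on low counts left 124 of the 127 members, and the quasi-likelihood test of edgeR, adjusted by Benjamini-Hochberg over 15762 genes, called 0 of them at an adjusted p under 0.05, with 0% of all genes called as well. DESeq2 called 0 too, and 6 members had an unadjusted edgeR p under 0.05. The median log2 fold change of the members was -0.06, against 0.00 for all genes, with 78 members negative and 46 positive. All 3 libraries at 0.3 μM were below all 3 of DMSO for 11 members and above them for 4, where 5.27% and 3.16% of all genes tested were so placed.

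The 3 members with the lowest p at 0.3 μM were AC018665.1, AC015813.5 and AL132780.4. AC018665.1 lies opposite EXOC7, a subunit of the exocyst that tethers secretory vesicles, and had 23, 26 and 17 counts in DMSO, 7, 10 and 6 at 0.3 μM and 18, 18 and 9 at 1 μM. It was thus lowest at the lower dose, where its libraries did not overlap those of DMSO, while those at 1 μM did. Its log2 fold change at 0.3 μM was -1.53 (SE 0.39), with an unadjusted edgeR p of 0.00107 and an adjusted p of 0.995. EXOC7 itself had a log2 fold change of 0.00 there.

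At 1 μM, 23 TEC genes fell and 0 rose by the test. Of the 127 members, 123 passed the filter (AC011498.7, AC018628.1, AC092279.2 and Z97633.1 did not), and edgeR with Benjamini-Hochberg adjustment over 15617 genes called 23 lower and 0 higher at an adjusted p under 0.05. Among all genes 9.95% of genes were called lower and 7.67% higher, so that the 18.7% of members called is close to the 17.6% called in either direction among all genes, while its split between directions is not. With a minimum count of 1 in the filter all 127 members were tested, and 23 were again lower. The median log2 fold change of the 123 was -0.56, against -0.01 for all genes, with 98 negative and 25 positive. All 3 libraries at 1 μM were below all 3 of DMSO for 55 members and above for 5, where 19.1% and 16.7% of all genes were so placed. The 23 falls ran from -2.47 to -0.49 on the log2 scale with a median of -1.39, 17 of them over 2-fold. The largest, those of AC131009.4 (-2.47) and AC090181.3 (-2.04), rest on few reads. Their means at 1 μM were 0.223 and 0.246 CPM, close to the floor. Without DMSO replicate 3 the number called lower was 15.

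The members were low in counts, and the call rate of all genes depends on counts. At mean counts of 10 to 20, 6 of 51 members (11.8%) were called, all lower. In that band 7.52% of all genes were called in either direction, 90 of 1515 lower and 24 higher. From 20 to 50 counts 10 of 46 members (21.7%) were lower, against 10.02% of genes called, 149 of 1767 lower and 28 higher. From 50 to 250 counts 7 of 26 members (26.9%) were lower, against 16.1% of genes called, 350 of 3266 lower and 175 higher. In the other classes, 20 of 104 sense_intronic genes were lower and 0 higher (median -0.54), 116 of 703 antisense genes were lower and 2 higher (-0.32), 59 of 550 lincRNA genes were lower and 5 higher (-0.19), and 1155 of 12820 protein-coding genes were lower and 1174 higher (0.01). The predominance of falls was therefore shared by the other non-coding classes, and no difference between TEC and those classes was tested.

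By position, most of the members called lower at 1 μM were inside hosts. Of the 43 members inside a host that were tested, 14 were lower and 42 had a negative log2 fold change, with a median of -0.64. Of the 29 opposite a host, 4 were lower (13.8%, median -0.67), and of the 31 apart from any host, 4 (12.9%, -0.56). Of the 18 downstream members 1 was lower, AC006378.2 beyond the vesicle fusion gene BET1, and their median was -0.08 with 7 positive. Without 1 μM replicate 1 the median of the inside members was -0.81. Inside hosts 32.6% were thus lower and downstream 5.56%, against 9.95% of all genes. Over all members of each position, the median of the mean counts was 30.7 inside, 18.2 opposite, 18.1 apart and 35.5 downstream. The differences between positions, and the part of depth in them, were not tested. The call on AC006378.2 was lost without DMSO replicate 2 or 3 or 1 μM replicate 1 or 3.

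**Figure D2:**
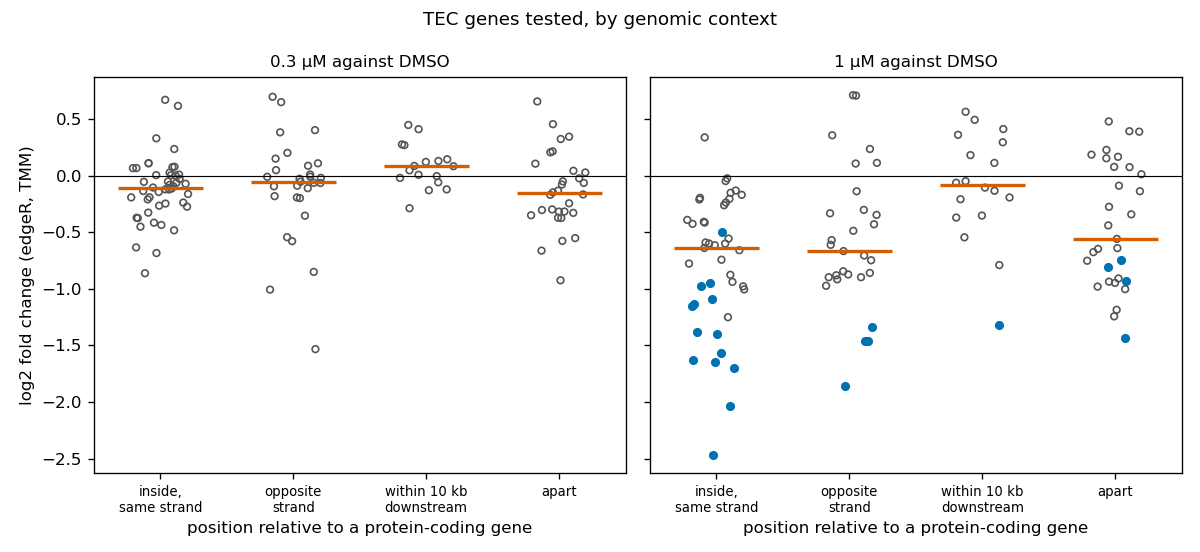
The edgeR log2 fold change (y axis) of each TEC gene tested at 0.3 μM (left) and 1 μM (right) against DMSO, by position relative to a protein-coding gene (x axis). Filled points have an adjusted p under 0.05 (0 at 0.3 μM and 23 at 1 μM), horizontal bars are medians, and the 2 members in partial overlap are left out; at 1 μM the medians are -0.64, -0.67, -0.08 and -0.56 from left to right.

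Several abundant members fell. AC022400.7 (ENSG00000279088, chr10:73742995-73744230, minus strand) was the most abundant, and its annotated start lies 154 bases from SEC24C, a COPII coat gene on the other strand. It had 252, 300 and 269 counts in DMSO, 237, 257 and 213 at 0.3 μM and 159, 129 and 149 at 1 μM. The libraries at 1 μM were under all the others, and the fall of 0.93 on the log2 scale (SE 0.11) had an edgeR adjusted p of 0.00014. AL353763.2 (ENSG00000280077), which overlaps the pseudogenes FRG1HP and PGM5P2 so that its reads may be divided among near copies, had 173, 195 and 191 counts in DMSO, 141, 173 and 144 at 0.3 μM and 98, 111 and 114 at 1 μM. In CPM its 3 groups did not overlap, and its log2 fold change at 1 μM was -0.81 (SE 0.14, edgeR adjusted p = 0.00116).

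Other abundant members did not pass the edgeR test at 1 μM against DMSO. AC015813.6, 136 bases beyond the dynein light chain gene DYNLL2, had a mean of 10.8 CPM in DMSO and 8.26 at 1 μM (log2 fold change -0.37, SE 0.13, edgeR adjusted p = 0.0729). It was called lower at 1 μM than at 0.3 μM (-0.41, SE 0.12, edgeR adjusted p = 0.0418). That call was lost with DESeq2, with a minimum count of 1 in the filter and with the replicate number as a block. It was also lost when any library but 0.3 μM replicate 3 was left out. AC000123.3 in ZNF800, whose end carries the ATTAAA printed above, had a log2 fold change of -0.41 (SE 0.15, adjusted p = 0.067), with all 3 libraries at 1 μM under those of DMSO in CPM. Its ratio to ZNF800 was called lower by limma at 1 μM against 0.3 μM (-0.49, SE 0.14, adjusted p = 0.0436) but not against DMSO (adjusted p = 0.0559). HEIH, a long non-coding RNA known from hepatocellular carcinoma, had 129, 109 and 148 counts in DMSO, 164, 167 and 170 at 0.3 μM and 125, 156 and 132 at 1 μM. Its libraries at 1 μM and in DMSO overlapped (log2 fold change 0.08, SE 0.16), and its reads can be shared with LINC00847, which it overlaps. AL928654.4, in the sorting gene PACS2, had 141, 141 and 146 counts in DMSO, 135, 141 and 128 at 0.3 μM and 154, 106 and 160 at 1 μM. Its log2 fold change of -0.05 (SE 0.16) was close to 0. AC092645.1, 148 bases beyond the fibulin gene FBLN7, also had a log2 fold change of -0.05 (SE 0.15).

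**Figure D3:**
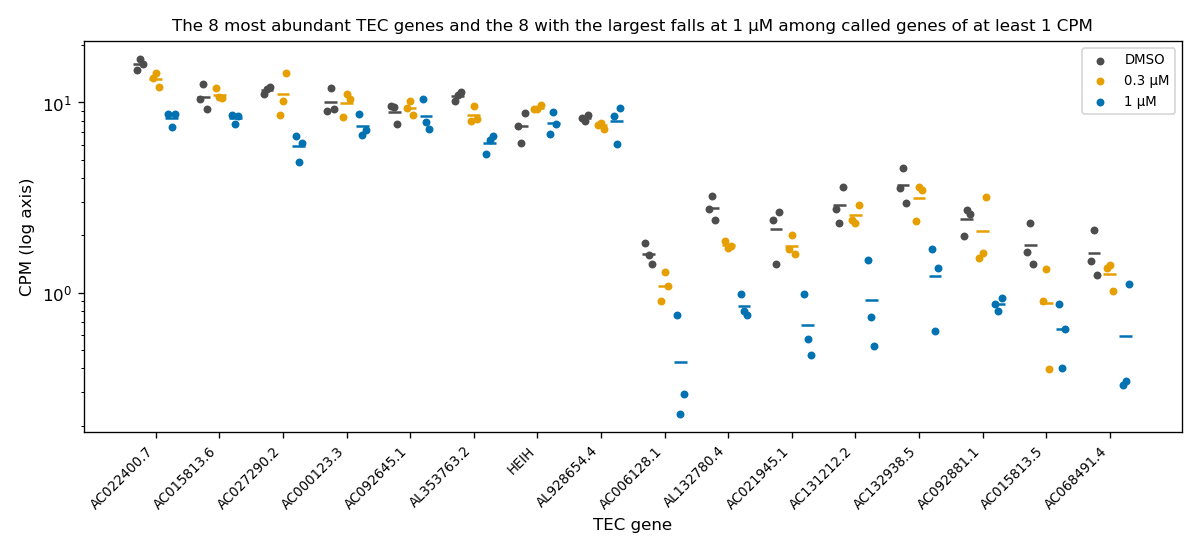
CPM (y axis, log scale) of the 8 TEC genes with the highest mean count and the 8 with the largest falls at 1 μM among called members with a mean of at least 1 CPM, each in 9 libraries. Points are libraries and short bars group means; the 3 points at 1 μM lie under all 3 of DMSO for each of the 8 genes on the right and for AC022400.7, AC015813.6, AC027290.2, AC000123.3 and AL353763.2 on the left.

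The host genes stayed near no change in the median, whereas the members inside them were mostly lower. Of 43 host genes of inside members tested at 1 μM, 3 were higher and 5 lower by edgeR, and their median log2 fold change was -0.03, against -0.64 for the members. In 38 of the 42 pairs in which both were tested, the member had the lower fold change. The 28 genes opposite a member had a median of -0.05 with 3 higher and 4 lower, and the 18 genes upstream of a member -0.06 with 2 higher and 0 lower. Among the 14 inside members that fell, the host was not called for 10, was lower for 3 (PAM16, FBXO46 and MPHOSPH9) and was higher for 1 (VPS37B).

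**Figure D4:**
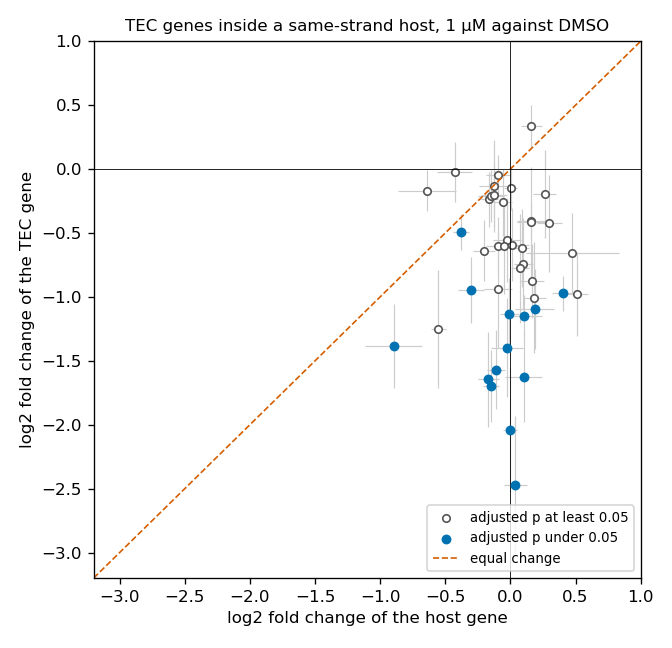
The edgeR log2 fold change at 1 μM against DMSO of the host gene (x axis) and of the TEC gene inside it (y axis) for the 42 pairs in which both were tested, with standard errors as grey bars. Filled points are TEC genes with an adjusted p under 0.05 and the dashed line marks equal change; 38 pairs lie under the line.

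A test of the ratio itself was made across all 282 pairs of a non-coding gene inside a same-strand protein-coding gene, of which 45 were TEC members. The ratio was log2(member CPM + 0.5) minus log2(host CPM + 0.5) in each library, tested with limma and Benjamini-Hochberg adjustment over the 282 pairs; the offset of 0.5 CPM understates the change of low members. At 1 μM the ratio was lower for 13 of the 45 members and higher for 0, where 12.1% of all pairs were lower and 0.709% higher. Among the 13 were AC131009.4 and AC090181.3, whose mean levels at 1 μM were close to the floor. The median difference was -0.47, and 39 of 45 were negative; with an offset of 2 CPM the median was -0.28, with 35 negative and again 13 called. For 20 members all 3 libraries at 1 μM were below all 3 of DMSO and for 2 above, where 33% and 5.32% of all pairs were. The calls depended on single libraries: without 1 μM replicate 2 the number was 3, and without DMSO replicate 2 it was 8. At 0.3 μM limma called 0 members, with 1 at an unadjusted p under 0.05, and the median was -0.13; 1 member was below and 2 above in all libraries, where 4.26% and 2.13% of all pairs were. Between 0.3 μM and 1 μM limma called 10 of the members lower and 0 higher, where 9.22% of all pairs were lower and 1.06% higher, and 18 were below and 1 above in all libraries, where 28.7% and 6.03% were.

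FBRSL1, a gene of the fibrosin family, shows the contrast at 2 intronic places. AC131212.3 (ENSG00000280287, chr12:132550729-132554947) had 114, 136 and 116 counts in DMSO, 109, 133 and 160 at 0.3 μM and 58, 55 and 54 at 1 μM. The 3 libraries at 1 μM stood closely together and far under the rest. AC131212.2 (ENSG00000279700, chr12:132565071-132566425), farther along the same gene, had 47, 41 and 61 counts in DMSO, 43, 42 and 51 at 0.3 μM and 27, 13 and 9 at 1 μM. FBRSL1 had 1718, 1048 and 1549 counts in DMSO, 1574, 1596 and 1671 at 0.3 μM and 1491, 1625 and 1585 at 1 μM, so that its groups overlapped. By edgeR, AC131212.3 fell by 1.15 (SE 0.16, adjusted p = 0.000329) and AC131212.2 by 1.63 (SE 0.35, adjusted p = 0.00551) on the log2 scale, and FBRSL1 had a log2 fold change of 0.10 (SE 0.14). The limma ratio to FBRSL1 fell by 1.17 (SE 0.23) and by 1.42 (SE 0.28), with an adjusted p of 0.00288 for both.

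In VPS37B, which encodes a subunit of the ESCRT-I sorting complex, member and host moved in opposite directions. AC027290.2 (ENSG00000280138, chr12:122870059-122888720), the longest member, had 189, 209 and 204 counts in DMSO, 153, 182 and 252 at 0.3 μM and 121, 85 and 105 at 1 μM. VPS37B had 617, 549 and 580 counts in DMSO, 600, 587 and 644 at 0.3 μM and 859, 756 and 728 at 1 μM. The member's libraries at 1 μM were under and the host's above all the others. By edgeR the member fell by 0.97 (SE 0.14, adjusted p = 0.000348) and the host rose by 0.40 (SE 0.08, adjusted p = 0.00384) on the log2 scale. Host exons covered 8.88% of the member, so that reads of both could be exchanged there.

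SLC16A3 and ULK1 held members that passed in the ratio test. AC132872.4, in the lactate transporter gene SLC16A3, had 32, 31 and 42 counts in DMSO, 43, 29 and 22 at 0.3 μM and 19, 24 and 11 at 1 μM. SLC16A3 rose by 0.51 (SE 0.08, edgeR adjusted p = 0.000994) while the member's own fall of 0.98 (SE 0.33) missed the threshold (adjusted p = 0.0539); the limma ratio was -1.27 (SE 0.25, adjusted p = 0.00288). Its span also overlaps CSNK1D. AC131009.4, in the autophagy kinase gene ULK1, had 16, 28 and 23 counts in DMSO, 18, 14 and 19 at 0.3 μM and 9, 1 and 2 at 1 μM. It had the largest fall of the 23, at a mean under 1 CPM, by 2.47 (SE 0.54, edgeR adjusted p = 0.0063), with a range of -3.76 to -2.03 when single libraries were left out, and ULK1 had a log2 fold change of 0.04. The member's counts of 1 and 2 at 1 μM lay under the floor of 3, so the size of its fall rests on few reads. It passed the filter through its DMSO libraries, all its counts at 1 μM being below the minimum count.

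**Figure D5:**
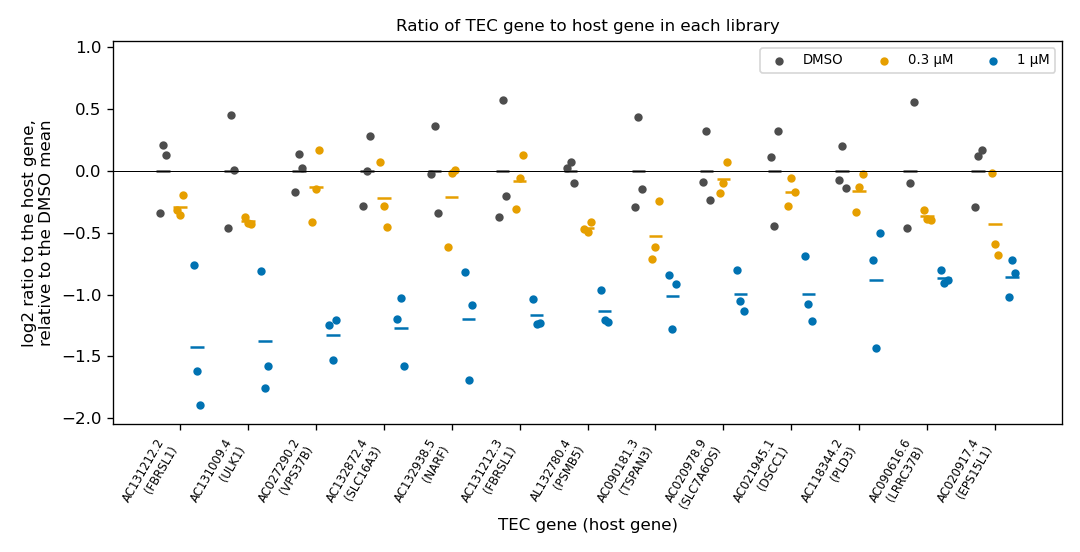
The log2 ratio of TEC gene to host gene in each library, relative to the mean of the DMSO libraries (y axis), for the 13 pairs that limma called lower at 1 μM (x axis, host in brackets). Points are libraries and short bars group means; in each pair the 3 points at 1 μM lie under the 3 of DMSO.

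The remaining inside members named for their falls at 1 μM were AL132780.4, AC132938.5 and AC021945.1. AL132780.4 (ENSG00000279656), in an intron of the proteasome subunit gene PSMB5, had 47, 57 and 41 counts in DMSO, 33, 31 and 31 at 0.3 μM and 18, 14 and 13 at 1 μM. It thus stood in 3 separate levels that followed the dose, although at 0.3 μM its unadjusted edgeR p of 0.0185 did not survive adjustment. At 1 μM it fell by 1.70 (SE 0.28, edgeR adjusted p = 0.00106), and PSMB5 had a log2 fold change of -0.15. AC132938.5 (ENSG00000279744), in the lamin-binding factor gene NARF, had 61, 80 and 50 counts in DMSO, 42, 65 and 61 at 0.3 μM and 31, 11 and 23 at 1 μM, and fell by 1.57 (SE 0.31, adjusted p = 0.00336), with NARF at -0.11. AC021945.1, in the sister chromatid cohesion gene DSCC1, had 41, 25 and 45 counts in DMSO, 30, 36 and 28 at 0.3 μM and 18, 10 and 8 at 1 μM. Its libraries at 1 μM lay under the others, and it fell by 1.65 (SE 0.37, edgeR adjusted p = 0.0076), with DSCC1 at -0.17.

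For 3 called members the host fell too, and their limma ratios to the host were -0.39, -0.57 and -0.08 in the order below. The median ratio over all inside members tested was -0.47. AC012676.5 in PAM16, a mitochondrial import gene, fell by 1.39 (SE 0.33) and PAM16 by 0.90 (SE 0.22). AC007191.1 in FBXO46 fell by 0.95 (SE 0.26) and its host by 0.30 (SE 0.10). AC073857.1, at the very end of MPHOSPH9 and in part within its exons, fell by 0.49 (SE 0.14) and its host by 0.38 (SE 0.06). The call on AC073857.1 was lost when any library but DMSO replicate 2 was left out, and that on AC007191.1 without DMSO replicate 1 or 1 μM replicate 2 or 3. None of these 3 pairs was called by limma on the ratio; they were named after their values were seen.

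Opposite-strand members fell in 4 cases, with the paired gene moving either way. AC006128.1 (ENSG00000279716), opposite the nuclear anchoring gene AKAP8L and wholly within its exons, had 31, 28 and 24 counts in DMSO, 16, 23 and 19 at 0.3 μM and 14, 4 and 5 at 1 μM. The DMSO libraries were above all the others. It fell by 1.86 (SE 0.42, edgeR adjusted p = 0.0073) and AKAP8L had a log2 fold change of 0.04. AC015813.5 (ENSG00000279069), which crosses the start of the splicing factor gene SRSF1, had 28, 41 and 24 counts in DMSO, 16, 24 and 7 at 0.3 μM and 16, 7 and 11 at 1 μM. SRSF1 had 590, 726 and 590 counts in DMSO, 579, 705 and 399 at 0.3 μM and 1027, 839 and 873 at 1 μM. The member fell by 1.46 (SE 0.36, edgeR adjusted p = 0.0129) and SRSF1 rose by 0.50 (SE 0.08, adjusted p = 0.00105). Without 1 μM replicate 2 the call on AC015813.5 was lost (adjusted p = 0.0649).

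The other 2 were AC092881.1 and AC093525.9. AC092881.1, opposite intronic sequence of the deadenylase subunit gene CNOT2, had 34, 48 and 44 counts in DMSO, 27, 29 and 56 at 0.3 μM and 16, 14 and 16 at 1 μM. Its libraries at 1 μM lay under those of both other groups; it fell by 1.46 (SE 0.29, edgeR adjusted p = 0.00359) and CNOT2 fell by 0.22 (SE 0.07, adjusted p = 0.0304). AC093525.9, opposite the kinase gene PDPK1, fell by 1.33 (SE 0.34), a call lost without DMSO replicate 3 or 1 μM replicate 2. Among members apart from protein-coding genes, AC068491.4 within the span of MIR4435-2HG had 25, 38 and 21 counts in DMSO, 24, 25 and 18 at 0.3 μM and 6, 6 and 19 at 1 μM. Its fall of 1.44 (SE 0.44, edgeR adjusted p = 0.0387) missed the threshold (adjusted p 0.0607 to 0.146) when any library but 1 μM replicate 3 was left out.

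No member was called higher by adjusted p in any fit, and the members with positive values at 1 μM were mostly outside hosts. At an unadjusted edgeR p under 0.05, 2 members were higher and 48 lower at 1 μM, and 1 (HEIH) was higher and 5 lower at 0.3 μM. Of the 25 positive ones, 1 was inside, AC005831.1 in the calcium-channel regulator gene CRACR2A, with 85, 75 and 97 counts in DMSO, 81, 99 and 83 at 0.3 μM and 114, 111 and 105 at 1 μM. Its log2 fold change was 0.34 (SE 0.16, edgeR adjusted p = 0.168). The lowest adjusted p among the positive members was 0.106, for AC012513.3 downstream of XRCC5, which encodes the Ku80 subunit of the DNA end-binding complex. These members were chosen after their values were seen.

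Between the doses, 14 TEC genes were lower at 1 μM and 0 higher. By edgeR with Benjamini-Hochberg adjustment 14 of the 117 members tested were lower at 1 μM than at 0.3 μM and 0 higher (11.97%), where 6.76% of genes were lower and 5.85% higher. The median was -0.39, and 38 members were below and 3 above in all libraries, where 16.1% and 15.3% of genes were. The 3 lowest p were those of AC131212.3 (-1.25, SE 0.18), AC022400.7 (-0.67, SE 0.12) and AC027290.2 (-0.90, SE 0.18). Left out singly, 0.3 μM replicate 1 gave 9 calls, 0.3 μM replicate 2 gave 7, 1 μM replicate 2 gave 5 and 1 μM replicate 3 gave 7. The comparisons share libraries, so their calls are not independent of each other.

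In the group means of CPM, 68 members fell from DMSO to 0.3 μM to 1 μM, 8 rose throughout and 51 had another order. Inside hosts it was 31, 0 and 15, and among downstream members 6, 5 and 7. The 1 μM group was the lowest for 94 members, 0.3 μM for 19 and DMSO for 14. In single libraries, the median inside member stood at -0.34, -0.51 and -0.56 on the log2 scale against the DMSO mean at 1 μM, and at -0.18, -0.08 and -0.04 at 0.3 μM. Each of the 3 libraries at 1 μM was thus lower than each at 0.3 μM by this measure.

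The end features printed above were set beside the change. Of 45 tested members with AATAAA or ATTAAA, 9 were lower at 1 μM, with a median log2 fold change of -0.49, and of 78 without, 14 (-0.60). Of the 18 with a run of at least 10 A, 5 were lower (-0.91), and of the 105 without, 18 (-0.49). Members with such a run were mostly inside hosts, and the difference was not tested.

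Long non-coding RNAs and genes that handle nuclear RNA were read as 4 lists. Of 5 long non-coding RNAs tested at 1 μM, 3 were lower and 0 higher by edgeR. SNHG14 (log2 fold change -0.14) and NORAD (-0.02) were not called. MALAT1, an abundant RNA of nuclear speckles, fell by 0.96 (SE 0.11, adjusted p = 5.35e-05), NEAT1, the scaffold of paraspeckles, by 1.08 (SE 0.16, adjusted p = 0.000601), and KCNQ1OT1, an imprinted antisense RNA, by 0.59 (SE 0.08, adjusted p = 0.000204). Among all genes 9.95% were lower and 7.67% higher. Of 24 splicing kinase and SR-related genes, 13 were lower and 3 higher, with a median of -0.19. Of 23 genes of the polyadenylation machinery, 2 were lower and 1 higher, and of 16 nuclear exosome genes tested, 1 was lower and 1 higher. At 0.3 μM edgeR called 0 genes of these lists. The part of these genes in the change of the TEC members was not tested.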

How the data were processed

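RNA-seq of KHM-5M cells was read from a table of the whole series with whole-number counts and FPKM per gene for the 9 libraries, both deposited by the authors. The counts were not normalized, and the deposited FPKM divide each count by gene length and library size. Per the submitters' processing notes, HISAT2 2.0.5, featureCounts 1.5.0-p3 and DESeq2 1.20.0 were used, whereas the paper names HTseq for counting; the genome was GRCh38. Fold changes and p-values of the authors' own comparisons are also in the table and were not used. The paper's methods speak of 2 biological replicates for a condition, whereas the labels list 3 samples, which were taken as 3 replicates. All value columns could be assigned to a sample. Libraries held 16903251 to 18238884 counts.

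Members, gene lists and tests were chosen with earlier results of these data known. Members were TEC genes with a mean count of at least 10. Hosts and distances came from the deposited coordinates, exons from GENCODE v44 and sequence from hg38. With several candidate hosts, the protein-coding gene with the highest mean count was taken.

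Tests used edgeR 4.0.16 (filterByExpr with a minimum count of 10, TMM, glmQLFit and glmQLFTest on the groups compared) in R 4.3.3, with Benjamini-Hochberg adjustment over all genes tested and calls at an adjusted p under 0.05. The SE of an edgeR fold change was derived from the test, as the absolute log2 fold change divided by the square root of its F statistic. Ratios to hosts used limma 3.58.1 (eBayes with a trend), and DESeq2 1.42.0 served as an alternative. Non-overlap of groups was read from CPM. The scripts were tested on simulated data. Named members were the 8 most abundant, the 8 largest falls and rises at 1 μM (adjusted p under 0.05, at least 1 CPM, groups not overlapping), the 3 lowest p of each other comparison and up to 6 lowest p per direction of the ratio test. Alternatives were other normalizations, filters, offsets, a fit of all 9 libraries, a replicate block and leaving out each library. Tables were made with Python 3.11.15 and pandas 2.3.3. A marker gene and a pair of 3′ end sequences are not reported here.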

Additional observations from a re-analysis of the deposited data

How the results depend on the processing

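At 1 μM against DMSO, 23 members were called lower by edgeR; the number was 23 with DESeq2, with RLE size factors and with a minimum count of 1, 26 with library totals, 27 with all 9 libraries in a single fit and 22 with a 1.5-fold limit. It was 50 by unadjusted p and 13 for members with a mean count of at least 30, and 15 to 23 with single libraries left out (15 without DMSO replicate 3). By adjusted p no member was called higher in any of these fits, and by unadjusted p 2 of the 50 were higher. At 0.3 μM the number was 6 by unadjusted p and 0 in each other fit. For 1 μM against 0.3 μM it was 38 by unadjusted p, 10 with DESeq2, which gave 37 members no adjusted p, and 5 to 11 with single libraries left out. On the ratio to the host it was 20 by unadjusted p, 13 with an offset of 2 CPM (11 of them shared, median -0.28) and 3 to 15 with single libraries left out. The inside median was -0.49 for members with a mean count of at least 30 and -0.81 to -0.59 with single libraries left out. The share of counts at 1 μM was lower than in DMSO by -0.00865 percentage points, by -0.00565 for members with a mean count of at least 30 and by -0.00939 to -0.00799 with single libraries left out. The sign of 3 members that were not called turned with single libraries left out: AC092645.1 ran from -0.20 to 0.052 (without DMSO replicate 1 0.01, without 1 μM replicate 2 0.00064), HEIH from -0.047 to 0.21 (without 1 μM replicate 2 -0.03) and AL928654.4 from -0.18 to 0.11. The cause of these differences was not tested. With a mean count of at least 30 fewer members of the same fit were counted, and with a library left out fewer samples were used.

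Replicate numbers are shared by the groups, and a fit with the replicate number as a block called 21 members lower at 1 μM against DMSO, 0 at 0.3 μM, 14 between the doses and 15 on the ratio, with an inside median of -0.64. The deviations of same-numbered libraries correlated at -0.136, -0.0895 and 0.0953 over 12109 genes between DMSO and 1 μM, and at -0.0465, -0.0648 and -0.0218 between the doses. Between DMSO and 0.3 μM they correlated at 0.221, 0.172 and 0.0697, where differently numbered libraries ran from -0.174 to -0.00408. Whether same-numbered libraries were handled together is not given in the labels and was not tested. Under the block the calls on AC068491.4 (adjusted p 0.0547), AC073857.1 and AL136164.4 were lost. At a median of 22.4 counts per member, 3 libraries a group limit the falls that can be called, and values near the floor of 3 counts rest on few reads. Intervals and floors cover counting error only. An exact permutation test of 3 against 3 could not go below 0.1 and was not used.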
